A study of Mus musculus with 6 samples.

Results

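Open-chromatin regions that appeared in Utx knockout progenitors and lay between protein-coding genes numbered 1588, out of 75961 regions open in at least 1 of the samples. They were chosen by a rule on the peak lists themselves: the peaks of all 6 samples were merged where they shared at least 1 bp, and a region was kept when all 3 knockout samples and 0 of the 3 wild-type samples had a peak in it and it overlapped no protein-coding gene, each gene being widened by 1 kb on both sides. Such regions are called gained here, the opposite pattern is called lost, and regions with a peak in every sample are called shared. Because the rule used the presence of peaks, the counts of gained regions are descriptions and carry no test. Of the 1588, 1587 lay on assembled chromosomes and entered every measure of position.

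The cells were lineage-depleted bone marrow, a preparation enriched for haematopoietic stem and progenitor cells, and open chromatin was mapped by ATAC-seq, which cuts and tags accessible DNA with a transposase. All 6 samples came from mice of strain C57BL/6, with 3 of genotype UTX_WT and 3 of genotype UTX_KO. The labels give no allele, Cre driver, age or sex, and do not say whether the samples of a genotype came from separate mice. A p-value over samples thus reflects the spread among these libraries alone, which may be technical.

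UTX, encoded by Kdm6a, removes methyl groups from lysine 27 of histone H3, a mark laid down by Polycomb complexes, and works within the MLL3 and MLL4 complexes that act at enhancers. Open sites far from genes are often enhancers, which transcription factors bind to raise the activity of genes that may lie far away. In bone marrow, sets of such sites open and close as progenitors take the erythroid, myeloid or lymphoid path. In the B lymphoid path, factors such as E2A (encoded by Tcf3), EBF1 and PAX5 open the immunoglobulin loci before their gene segments are joined.

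Most gained regions have no sequence in the tables used here, because these cover gene starts only. The RefSeq promoter table (GRCm38.p6, the same assembly as mm10) gives 300 bp around each start, from 250 bp before to 50 bp after it, and 26 windows of lncRNA genes, which encode long RNAs without a protein, overlapped 25 gained regions. The 5 windows below, each cut to the part inside the gained region, show immunoglobulin kappa sites, a very wide region and the TCF/LEF letters. They are written 5′ to 3′ on the strand of the lncRNA, and capitals mark the letters of a searched motif, read on either strand. Gm46961 lies at chr6:70718827-70719126 (minus strand) and LOC108169192 at chr6:68880650-68880949 (minus strand), both in the Igk locus. Gm35787 lies at chr3:129422868-129423162 (plus strand), 1500009C09Rik at chr15:82255872-82256171 (plus strand) and Gm46335 at chr12:15896774-15896888 (minus strand).
Gm46961: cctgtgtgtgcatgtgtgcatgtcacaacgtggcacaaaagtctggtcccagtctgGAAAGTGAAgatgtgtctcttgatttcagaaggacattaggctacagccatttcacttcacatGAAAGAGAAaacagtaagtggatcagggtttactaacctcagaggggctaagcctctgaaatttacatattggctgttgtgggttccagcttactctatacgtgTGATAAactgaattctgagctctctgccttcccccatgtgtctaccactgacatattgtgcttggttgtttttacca
LOC108169192: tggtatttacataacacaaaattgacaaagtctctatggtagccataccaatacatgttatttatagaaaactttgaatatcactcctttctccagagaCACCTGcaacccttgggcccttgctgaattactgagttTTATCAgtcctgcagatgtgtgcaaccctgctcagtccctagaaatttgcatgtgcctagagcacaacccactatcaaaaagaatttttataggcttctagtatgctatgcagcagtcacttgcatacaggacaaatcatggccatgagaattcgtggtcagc
Gm35787: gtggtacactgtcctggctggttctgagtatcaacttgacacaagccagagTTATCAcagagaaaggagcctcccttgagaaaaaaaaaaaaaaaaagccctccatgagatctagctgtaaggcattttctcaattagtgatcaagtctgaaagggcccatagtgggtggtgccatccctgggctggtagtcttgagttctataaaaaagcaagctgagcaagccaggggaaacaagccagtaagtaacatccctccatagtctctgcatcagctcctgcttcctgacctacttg
1500009C09Rik: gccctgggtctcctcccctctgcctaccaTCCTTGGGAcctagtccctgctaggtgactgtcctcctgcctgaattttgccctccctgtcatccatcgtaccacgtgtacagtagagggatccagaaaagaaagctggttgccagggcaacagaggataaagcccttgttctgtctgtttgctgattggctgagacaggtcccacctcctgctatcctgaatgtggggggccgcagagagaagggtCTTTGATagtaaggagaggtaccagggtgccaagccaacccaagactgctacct
Gm46335: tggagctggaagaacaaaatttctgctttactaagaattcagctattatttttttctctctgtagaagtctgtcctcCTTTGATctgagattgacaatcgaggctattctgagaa

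The Gm46961 window carries IRF letters at 2 places (GAAANNGAA) and a GATA match (TGATAA), and lies in a gained region with peaks of 399, 600 and 917 bp in knockout samples 1, 2 and 3. The LOC108169192 window has an E-box (CAGGTG, read here as CACCTG) and a GATA match, in a region with peaks of 338, 541 and 426 bp. Gm35787 has a GATA match alone and sits in one of the widest gained regions, with peaks of 1177, 1370 and 1246 bp. In 1500009C09Rik an EBF match (TCCNNGGGA) stands upstream of a TCF/LEF match (CTTTGAT), and its peaks measured 623, 493 and 883 bp. Gm46335 has a TCF/LEF match, with peaks of 347, 347 and 300 bp. None of these regions had a wild-type peak, by the rule.

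E-box letters were the most frequent of the 15 motifs in these windows. Shares here are over whole windows of 300 bp, which can reach beyond the gained region. E-box letters (CAGCTG or CAGGTG), which E2A and related factors bind, stood in 14 of the 26 windows (53.8%), beside 34.8% of all 11588 lncRNA windows, 32.1% of 514 windows in shared regions and 26.2% of 107 in lost regions. TCF/LEF letters, the sequence that LEF1 and TCF7 bind, stood in 5 windows (19.2%), beside 4.67%, 3.89% and 2.80%. GATA letters (AGATAA or TGATAA) stood in 5 windows (19.2%), beside 23.7% of all lncRNA windows, 23.3% in shared and 46.7% in lost regions. ETS letters (CCGGAAGT or CAGGAAGT) and PU.1 letters (GAGGAAGT) stood in 0 windows, beside 4.97% and 3.33% of lncRNA windows. The shares of all 32851 promoter windows were 32.9% for E-box, 3.73% for TCF/LEF and 18.6% for GATA letters. Inside the gained part itself, E-box letters stood in 12 windows, GATA in 3 and TCF/LEF in 3. The Gm40748 and Gm33782 windows overlap in the same gained region and read the same E-box site on opposite strands. That site is counted for both. A match is a run of letters and not evidence of binding, and 26 windows near gene starts do not stand for the 1587 regions.

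Gained regions were 5.92% of the 26824 regions between genes, against 4.69% of all regions and 4.03% (1978 of 49137) of those in or within 1 kb of genes. Lost regions were 10.7% of the regions between genes (2857). The order of the gained and lost shares changed when every sample was limited to its widest 44576 peaks, the length of the shortest list. Then 9.60% of 22205 regions between genes were gained (2132) and 7.07% lost (1569). That limit drops the narrowest peaks, and more of them from the wild-type lists. Regions with narrow wild-type peaks can thus count as gained, and list length is not separated from peak width. Of all 3566 gained regions, 44.5% lay between genes (95% Wilson interval 42.9 to 46.2), beside 35.5% of lost regions, 29.3% of shared regions and 35.3% of all regions. These intervals treat regions as independent, which neighbours are not. Just outside the rule, 427 regions between genes had peaks in all 3 knockout samples and 1 wild-type sample, and 922 had peaks in 2 knockout samples and 0 wild-type samples. Their median region widths were 455 and 318.5 bp, beside 474 bp for the gained regions. Of the 11725 regions between genes with a peak in every knockout sample, 13.5% were gained.

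The samples themselves differed in list length. Wild-type lists held 57405 to 57917 peaks and knockout lists 44576 to 50249, and the read depth behind them is unknown. Of the 8 progenitor marker genes checked for a peak within 1 kb of a gene end, such as Kit, Cd34 and Meis1, all had one in every sample except Erg in wild-type sample 1. Of lineage markers, the T cell genes Cd3e and Cd3g and the granulocyte gene Ly6g had no such peak in any sample, and the erythroid gene Ermap and the myeloid gene Itgam had one in all 6. The B cell gene Ms4a1, encoding CD20, had one in 1 wild-type and 3 knockout samples. Of genes of other marrow cells, Pecam1, Cdh5 and Lepr had one in no sample and the stromal gene Col1a1 in all 6. In bulk samples more cells of a type and more open chromatin per cell cannot be told apart.

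Gained regions took up 1600, 1593 and 1596 peaks of knockout samples 1, 2 and 3, or 3.54%, 3.17% and 3.58% of the lists. Over all peaks, the share between genes was 33.05% ± 0.373 for the wild-type samples and 33.3% ± 0.659 for the knockout samples (SD, n = 3 each), a difference of 0.205 percentage points (two-sided exact permutation p = 0.8). The genotypes overlapped. With peaks in gained regions left out the knockout share was 30.9% ± 0.835, 2.17 points below wild type (difference -2.17, exact permutation p = 0.1, the smallest that 3 against 3 allow). That step removes peaks from the knockout lists alone, so it lowers their share by construction.

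Regions chosen on fewer samples were checked in the samples left out. Each time 2 knockout and 2 wild-type samples chose the gained regions between genes, which gave 1793 to 2459 regions over the 9 choices. The left-out knockout sample had a peak in 71.3 to 95.9% of them (median 87.4%), and the left-out wild-type sample in 5.81 to 11.05% (median 8.36%). Knockout sample 1 had the lowest shares (71.3 to 72.4%), sample 3 had 86.3 to 87.4% and sample 2, with the longest knockout list, had 95.3 to 95.9%. The knockout and wild-type shares did not overlap in these 9 choices. For lost regions chosen the same way, the left-out wild-type sample had a peak in 79.0 to 87.4% and the left-out knockout sample in 4.86 to 21.2%. With 1 sample on each side there is no test.

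**Figure D1:**
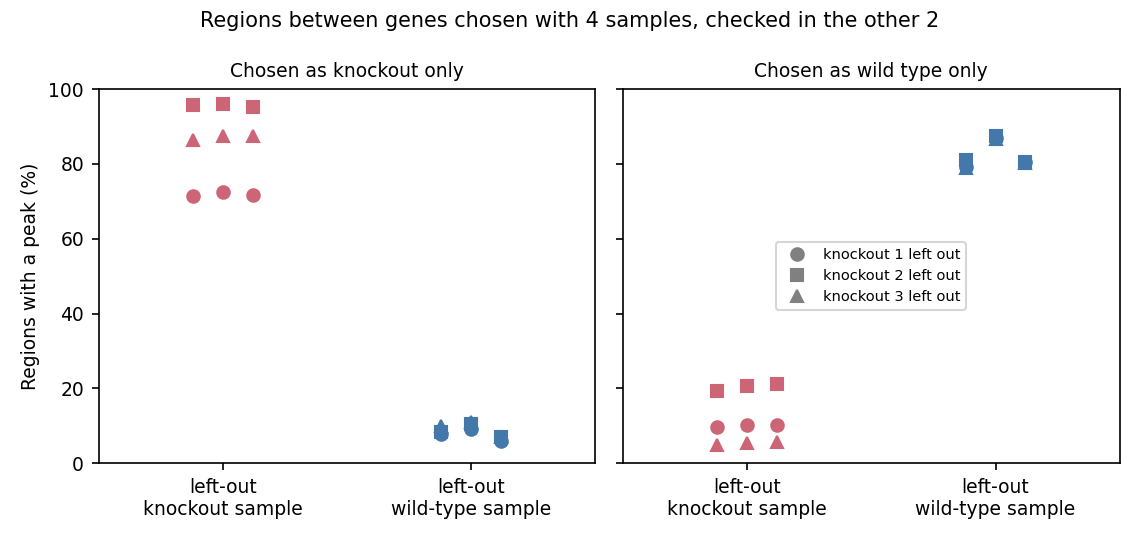
Percent of regions between genes with a peak in the left-out knockout (red) and wild-type (blue) sample, for regions chosen on the other 4 samples as knockout only (left) or wild type only (right). Each point is 1 of 9 choices, with its shape giving the knockout sample left out. On the left, knockout shares lie between 71.3 and 95.9% and wild-type shares between 5.81 and 11.05%. On the right, they lie between 4.86 and 21.2% and between 79.0 and 87.4%.

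Gained regions were modest in width. Their consensus widths ran from 229 to 1925 bp with a median of 474 bp. The median summed peak width in them was 344, 422 and 426 bp in knockout samples 1, 2 and 3 (mean 397 ± 46.2 bp, SD, n = 3). Lost regions between genes had wild-type medians of 320, 341 and 386 bp (349 ± 33.7 bp), and shared regions had knockout medians of 430, 467 and 426 bp. Peaks of at least 1000 bp made up 1.26%, 2.58% and 3.65% of gained regions, against 8.12%, 9.74% and 8.80% of shared regions in the same samples. Knockout sample 1 had the narrower peaks: it was the widest of the samples in 167 regions, against 664 for sample 2 and 756 for sample 3. Across the 1587 regions, Spearman correlations of width between knockout samples were 0.728 (samples 1 and 2), 0.686 (1 and 3) and 0.812 (2 and 3), over regions that share the same libraries.

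**Figure D2:**
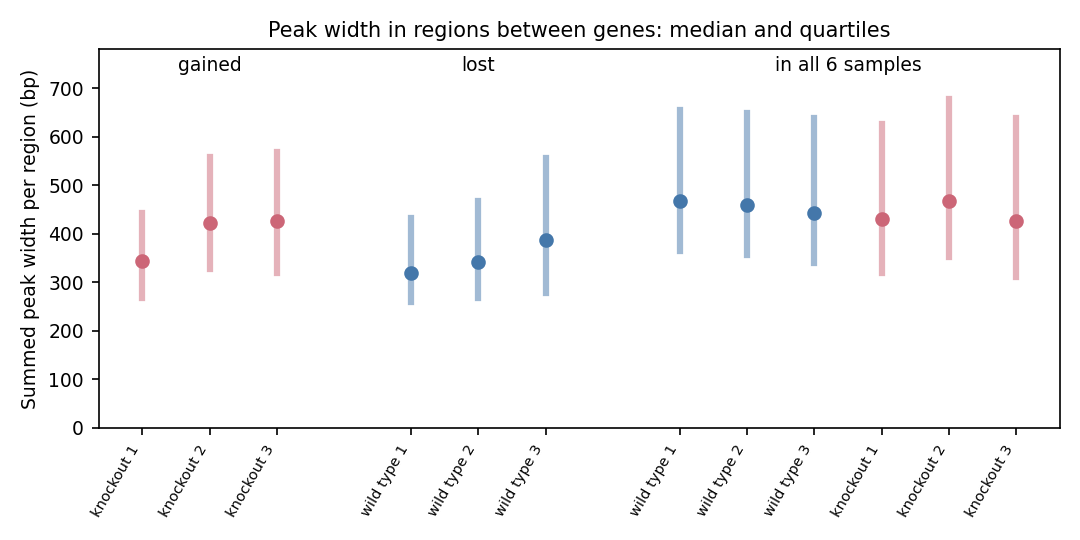
Summed peak width per region in base pairs, by sample, in gained, lost and shared regions between genes, with points for medians and bars for quartiles. Medians in gained regions are 344, 422 and 426 bp in the knockout samples, and upper quartiles are higher in the shared regions.

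The widest gained region, by mean knockout width, lay 27683 bp from Cplx2, a gene of vesicle release, at chr13:54411607-54413396, with peaks of 1484, 1771 and 1650 bp. The next lay 2482 bp from Lef1, a TCF/LEF factor of early lymphocytes, at chr3:131105980-131107814 inside the span of the lncRNA Gm36603, with 1204, 1649 and 1823 bp. A region at chr11:45441031-45442633 measured 1283, 1427 and 1603 bp. It lay deep between Ebf1, which directs progenitors to the B lineage, and Clint1, 432934 bp from the former and 409310 bp from the latter. All 3 knockout samples were above 1200 bp at each of these sites.

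Other wide regions lay near genes of varied roles. One at chr16:95815046-95816415 (1081, 1325 and 1370 bp) was nearest to the ETS factor gene Ets2, at 93996 bp. One at chr9:116323948-116325432 (1187, 1394 and 1247 bp) was nearest to Tgfbr2, a receptor for TGF-beta, at 148584 bp. Near Enpep, which encodes a peptidase of the cell surface, the region that holds the Gm35787 start spanned chr3:129421793-129423162. The samples agreed less at Sertad4 (chr1:192840827-192842751; 707, 1279 and 1925 bp) and Gpr61 (chr3:108166323-108167932; 732, 1515 and 1610 bp), where sample 1 was well below the other two. The remaining 2 of the widest 10 were nearest to 1700018B08Rik on chromosome 8 (1198, 1486 and 1525 bp) and to the amino acid transporter gene Slc6a19 on chromosome 13 (1182, 1260 and 1446 bp).

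Gained regions lay farther from genes than lost or shared ones. Their median distance to the nearest protein-coding gene was 39011 bp (95% interval 35192 to 44070), beside 19074 bp for lost, 19464 bp for shared and 21371 bp for all regions between genes. More than 100 kb from any gene lay 412 of them (26.0%), beside 14.9% of lost and 14.5% of shared regions. The intervals between genes that held them were long, with medians of 199636 bp (gained), 99190 bp (lost) and 108706 bp (shared). The gained share grew with distance: 3.40% of regions 1 to 5 kb from a gene, 4.61% from 5 to 20 kb, 5.99% from 20 to 50 kb, 8.04% from 50 to 100 kb and 8.80% from 100 to 500 kb. Beyond 500 kb it was 14.9% (51 of 343, Wilson interval 11.5 to 19.02). The lost share fell over the same bins from 11.8% to 5.83%, as a description over regions with no test. Immunoglobulin loci, whose segments the annotation does not count as protein-coding genes, supplied 19 of the 51. Without these loci the median was 37638 bp and the share beyond 500 kb 10.9% (32 of 294).

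**Figure D3:**
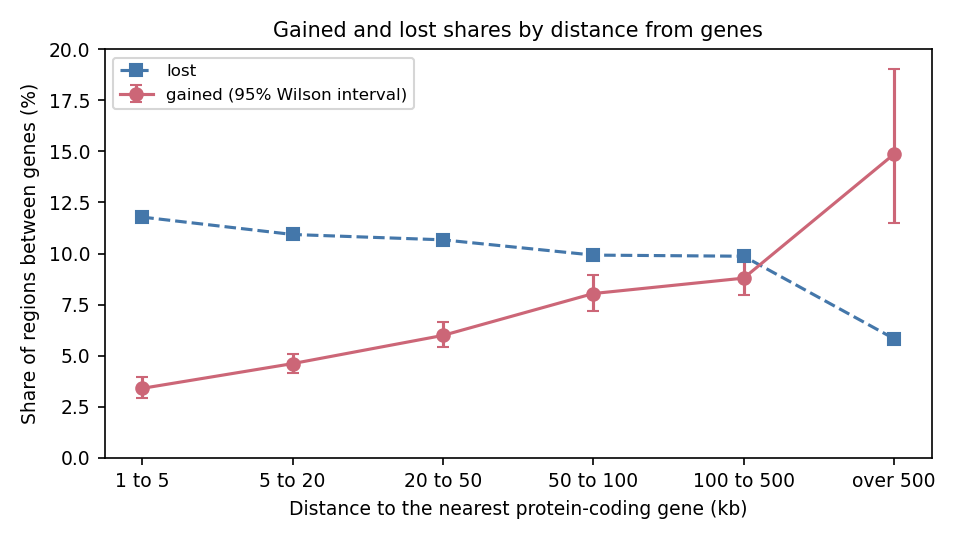
Percent of regions between genes that were gained (with Wilson intervals) and lost, by distance to the nearest protein-coding gene. The gained share runs from 3.40% at 1 to 5 kb to 14.9% beyond 500 kb, while the lost share runs from 11.8% to 5.83%.

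At the near limit, regions 1000 bp from Elof1 (537, 597 and 815 bp) and 1033 bp from Tmem128 (199, 264 and 280 bp) were just inside the rule. Gained regions 994 bp from Dapk3 (251, 249 and 504 bp) and 959 bp from Selplg (330, 409 and 380 bp) were just outside it. At the far end, the most remote regions lay 1429688 and 1407706 bp from Zeb2, a zinc finger repressor, with peaks of 300, 312 and 635 bp and of 350, 343 and 220 bp. The next 3 were inside the immunoglobulin kappa locus.

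The Igk locus, which supplies the kappa light chain of antibodies, held more gained regions than any of the other intervals between genes. In its span of 168 annotated segments (chr6:67555636-70726754), 24 of 44 regions between genes were gained (54.5%), 0 were lost and 3 were shared. Peaks in those regions numbered 3, 3 and 4 in wild-type and 29, 39 and 40 in knockout samples. Outside the gained regions themselves they numbered 3, 3 and 4 against 5, 15 and 16. Of the 24, 11 overlapped a V segment, among them Igkv2-137 (peaks of 259, 298 and 274 bp), Igkv5-48 (333, 397 and 407 bp) and Igkv1-35 (259, 248 and 399 bp). The widest was a site without a segment at chr6:67607434-67608287, with 714, 846 and 801 bp. Near the other end of the locus, 3 gained regions lay within the last 10 kb (chr6:70716889-70717480, chr6:70718434-70719350 and chr6:70724559-70725122), and the second of them holds the Gm46961 start.

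**Figure D4:**
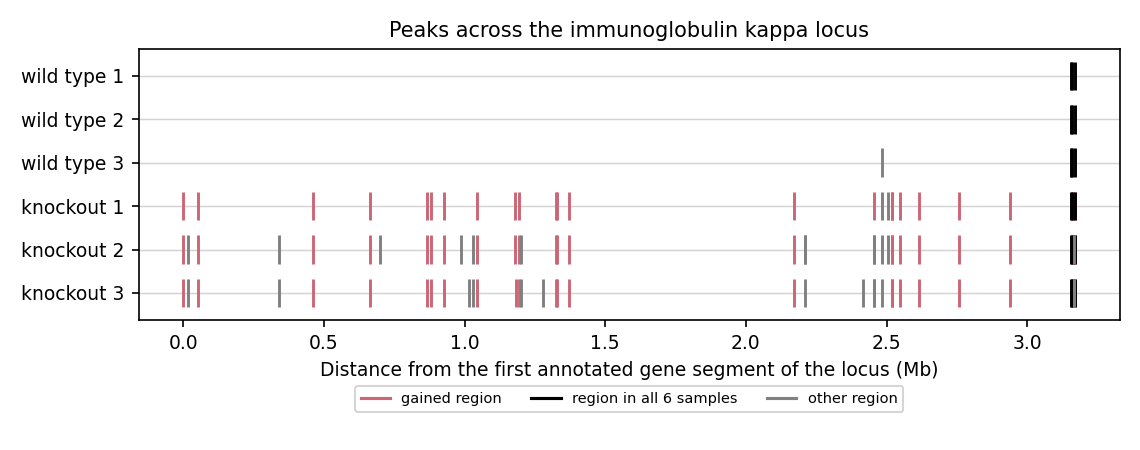
Peaks of each sample across the Igk locus, by distance in Mb from its first annotated segment, coloured by the kind of region they lie in. Wild-type samples have 3, 3 and 4 peaks, nearly all at the far end, and knockout samples have 29, 39 and 40 along the locus.

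The antigen receptor loci were chosen for description after the Igk values were seen, and their counts stand beside 5.92% gained and 10.7% lost over all regions between genes. At Igh, the heavy chain locus, 4 of 33 regions were gained and 2 lost, with 18, 22 and 23 wild-type and 23, 25 and 25 knockout peaks. The gained ones were 557, 829 and 574 bp at chr12:113417359-113418245, 619, 669 and 888 bp at chr12:114182305-114183219, 359, 488 and 466 bp at chr12:114273398-114273901, and 230, 666 and 954 bp at chr12:114609162-114610115. At the lambda light chain locus Igl, 1 of 7 was gained, over the segment Iglv3 with 773, 1000 and 942 bp, and peaks numbered 0, 1 and 1 against 4, 7 and 3. Over the 3 immunoglobulin loci 29 of 84 regions (34.5%) were gained. T cell receptor loci had 0 of 54: at Trb 5 of 35 regions were lost, and peaks numbered 24, 26 and 29 in wild type against 14, 15 and 9 in knockout. At Tra and Trd they numbered 8, 6 and 10 against 3, 4 and 2, and at Trg 5, 6 and 5 against 4, 5 and 3. Peaks between genes were fewer in knockout lists throughout: 19073, 19287 and 18797 in wild-type samples 1, 2 and 3 against 14815, 17082 and 14726 in knockout. How far this accounts for the counts at these loci was not tested.

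B lymphoid genes had the highest gained share of the 13 gene lists. Within 100 kb of the 26 B lymphoid genes, 25 of 177 regions between genes were gained (14.1%, Wilson interval 9.75 to 20.02), beside 5.92% of all regions between genes, and 11 (6.21%) were lost. At least 1 gained region lay near 14 of the 26. Lef1 had 4 of 8. Ebf1, Bach2 (a repressor that acts in B cells) and Tcf3 had 3 each, of 10, 17 and 9. Cd22, the interleukin 7 receptor gene Il7r and Irf4 had 2 each, of 13, 11 and 8. Vpreb2, Dntt, Blnk, Pou2af1, Foxo1, Ikzf3 and Spib had 1 each. Cd79a, Pax5, Rag1, Rag2 and Bcl11a were among the 12 without any. The nearest gained regions stood 1065 bp from Ikzf3 (464, 652 and 607 bp), 1514 bp from Cd22 (467, 755 and 784 bp) and 2285 bp from Pou2af1 (433, 477 and 425 bp).

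The number of genes with a peak at an end also differed between the genotypes for some lists. No share over all genes stands beside these counts, and the knockout peak lists are shorter. Of the 26 B lymphoid genes, 15, 15 and 17 had a peak within 1 kb of an end in wild type and 22, 24 and 22 in knockout. Of 28 erythroid genes, 24, 24 and 25 did in wild type and 13, 14 and 11 in knockout, whereas 19 of 20 housekeeping genes did in every sample. Of 16 megakaryocyte and platelet genes, 11, 11 and 8 did in wild type and 6, 6 and 6 in knockout. Of 24 T and NK lymphoid genes, 6, 7 and 6 and then 8, 8 and 6 did, with the defining genes Cd3e and Cd3g at 0. Of 23 stem and progenitor genes, 19, 18 and 17 and then 16, 17 and 15 did. For the remaining lists too the counts overlapped between the genotypes. The part of B cell number in the gained regions was not tested.

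Lists of other lineages stood nearer the background. Stem and progenitor genes had 12 of 175 regions gained (6.86%), 5 of them near Ly6a, which encodes the Sca-1 antigen, and 5 near Myb. One of the latter, at chr10:21092614-21093696, lay 31233 bp from Myb with 819, 936 and 1029 bp. Its nearest gene was Ahi1, at 12184 bp. ETS factor genes had 11 of 134 (8.21%), including 2 of 13 near Ets1, 2 of 6 near Ets2 and 2 of 16 near Fli1. A pair of regions between Fli1 and Ets1 (chr9:32609033-32609697 and chr9:32610271-32611064) measured 571, 632 and 643 bp and 604, 718 and 739 bp. T and NK genes had 8 of 124 (6.45%), with 3 at the T cell adhesion gene Cd2. Dendritic cell genes had 7 of 105 (6.67%), with 4 near the chemokine receptor gene Ccr7.

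Below the background were granulocyte and monocyte genes with 7 of 171 (4.09%), megakaryocyte genes with 3 of 63 (4.76%) and erythroid genes with 6 of 169 (3.55%). Near erythroid genes 45 of the 169 (26.6%) were lost. The 6 gained ones included a site 7954 bp from Gfi1b, a repressor needed for red cells (250, 399 and 488 bp). Another lay 9384 bp from the carbonic anhydrase gene Car2 and nearer, at 4103 bp, to Car3 (334, 392 and 268 bp). The myeloid repressor gene Gfi1 had 2 of 8. Of these, 1 at chr5:107738176-107739532 and 12370 bp away was wide, with 1098, 1333 and 1339 bp. Its nearest gene was Evi5, at 5262 bp. Leukaemia genes had 3 of 138 (2.17%), housekeeping genes 2 of 138 (1.45%), stroma and endothelium 1 of 74 (1.35%) and mast cell genes 0 of 49. The neural list, meant as a control, had 3 of 36 (8.33%, Wilson interval 2.87 to 21.8). The lists were small, and all Wilson intervals but those of the B lymphoid and housekeeping lists included 5.92%. Without knockout sample 1 the rule keeps more regions, and the background itself was 8.44% of all regions between genes. Beside it, the shares were 21.02% for B lymphoid, 10.9% for stem and progenitor and 6.51% for granulocyte and monocyte genes. Leukaemia genes were at 4.44% and housekeeping genes at 2.21%. Housekeeping genes were at 2.26% without wild-type sample 1, beside a background of 6.68%. The stroma share was 2.74%, 4.17% and 2.70% without knockout samples 1, 2 and 3, beside backgrounds of 8.44%, 6.36% and 6.89%. Without wild-type sample 3 it was 2.90%, beside 6.59%.

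**Figure D5:**
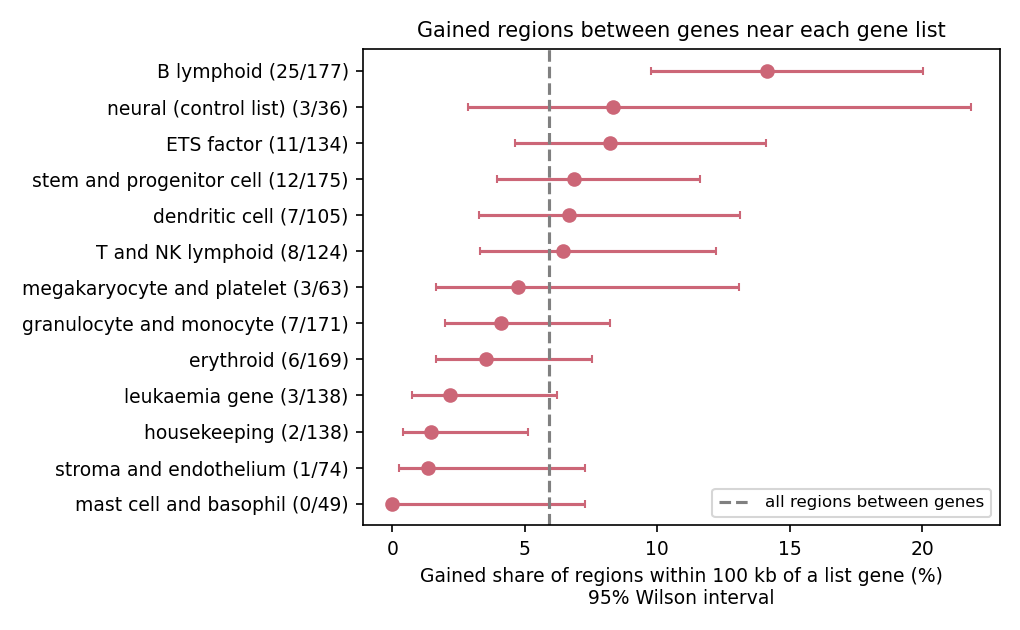
Percent of regions between genes within 100 kb of each gene list that were gained, with Wilson intervals, and the background of 5.92% as a line. B lymphoid genes are at 14.1%, and housekeeping genes at 1.45%.

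A small number of long intervals between genes held many gained regions. Of 6819 intervals with any region, 934 held a gained one and 623 of these held exactly 1, whereas 75 intervals with 4 or more held 414 gained regions. Apart from the Igk locus, the largest numbers were in Zeb2 to Acvr2a (12 of 69 regions), Nucb2 to Xylt1 (10 of 19), Rpl34 to Lef1 (8 of 20), Ebf1 to Clint1 (8 of 30), Trib2 to Lpin1 (8 of 32), Zfp608 to Gramd3 (8 of 33) and Prdm1 to Prep (8 of 37). Prdm1 encodes BLIMP1, which drives plasma cell formation. The interval beside Lmo4 had 8 of 41. That between Cetn3 and the myeloid and lymphoid factor gene Mef2c had 7 of 34, that between the chemokine receptor gene Cxcr4 and Thsd7b 7 of 35, that between Hhipl2 and 1700056E22Rik 7 of 25 and that between Eea1 and Btg1 7 of 61. Intervals with 6 included Lrrc3b to Oxsm (6 of 10), Lipc to Aqp9 (6 of 12), Disc1 to Sipa1l2 (6 of 13) and Fam43a to Xxylt1 (6 of 15). That between Tbc1d5 and Satb1, a chromatin organiser of lymphocytes, had 6 of 19. None was lost in the Nucb2, Rpl34, Zfp608, Lmo4, Hhipl2, Cxcr4, Satb1, Oxsm, Aqp9 or Disc1 intervals. In the Zeb2 interval 4 of 69 were lost. Lost regions numbered 3 each in the Prdm1 and Btg1 intervals and 2 each in those of Trib2 and Mef2c. The Ebf1 and Fam43a intervals held 1 each. Over all regions between genes 10.7% were lost, and the intervals named here were picked for their gained regions.

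Some gained regions stood side by side. Another gained region lay within 20 kb of 500 of the 1587 (31.5%), beside 35.2% for lost regions and 57.6% for shared regions among their own kind, which are more numerous. They formed 216 groups of 2 or more and 51 of 3 or more. The largest had 6 members over 58154 bp between Disc1 and Sipa1l2 on chromosome 8, with summed widths of 2075, 2741 and 2388 bp in knockout samples 1, 2 and 3. Groups of 5 lay between Zfp217 and Bcas1 (2699, 3447 and 3642 bp), between Sox9 and Slc39a11 within the lncRNA 2610035D17Rik (2360, 2569 and 2682 bp), and between Tmem131l and Mnd1 (1449, 1690 and 1934 bp). Groups of 4 lay between Ralgps2 and Tex35, Nucb2 and Xylt1, and Cd24a and Qrsl1, and around Cxcr4, where the sites stood 4548 to 10510 bp from the gene. None of these 8 groups contained a lost region, where 10.7% of all regions between genes were lost. Their spans held only 5 to 10 regions each and were picked for holding the most gained ones, so this is a description.

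The nearest neighbour of a gained region was itself gained for 335 of 1587 (21.1%), where 5.69% of all regions between genes had a gained neighbour. Lost regions did the same among themselves: their nearest neighbour was lost for 589 of 2857 (20.6%), where 9.74% of all regions had a lost neighbour. Unlike pairs were fewer, with a lost neighbour for 54 gained regions (3.40%) and a gained one for 65 lost regions (2.28%). The rule itself keeps wild-type peaks off these regions. The nearest one lay a median of 9658, 9005 and 9692 bp away in wild-type samples 1, 2 and 3, and within 10 kb for 51.0%, 52.7% and 51.2% of the gained regions.

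Shared regions near gained ones had wider peaks in knockout samples. The 1934 shared regions between genes within 50 kb of a gained region had median widths of 468, 462.5 and 437 bp in wild type and 479.5, 527 and 506 bp in knockout. The other 7170 had 467, 460 and 445 bp and 417.5, 454 and 409 bp. The ratio of near to other was 1.002, 1.01 and 0.982 in the wild-type samples and 1.15, 1.16 and 1.24 in the knockout samples, so the genotypes did not overlap. This compares the same samples as the rule and has no test.

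Overlap with non-coding genes was ordinary. Spans of lncRNA genes overlapped 346 of the 1587 (21.8%), beside 21.8% of lost, 23.8% of shared and 21.5% of all regions between genes. No miRNA hairpin overlapped a gained region. Beside the Lef1, Sertad4, Slc6a19, Enpep and Gfi1 sites above, the widest overlap with an lncRNA was at chr5:66168422-66169724, where Gm26725 and 1700126H18Rik lie 16467 bp from Rbm47, with 993, 1265 and 1243 bp.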

How the data were processed

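Peak lists were analysed for 6 ATAC-seq samples, 3 per genotype. The authors deposited 1 list of chromosome, start and end per sample, with no score, so the unit is a coordinate and depth is unknown. Per the submitters' processing notes the caller was MACS2, without a version, and the build mm10. The aligner, read filters, insertion shift and duplicate handling are not given in the labels or headers used here. Peaks were called per sample, and intervals cover counting error only.

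Merging, overlaps and distances were computed in Python 3.11.15 with NumPy 2.4.6, pandas 2.3.3 and SciPy 1.17.1, and tested on simulated lists. Genes were the 21887 protein-coding spans of RefSeq GRCm38.p6, and all 274 entries of the 13 gene lists matched. Shares have 95% Wilson intervals. The exact permutation test had 10 possible labellings. The members and the gene lists were chosen with earlier results of these data known.

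Regions were named by rule: the 10 widest, the 8 groups of most members, the 5 farthest from a gene, up to 3 nearest to each list, 6 over non-coding genes and 2 on each side of the 1 kb limit. Intervals and list genes named beyond it were chosen after their values were seen. A few of the rule's items are not reported here. Planned motif searches over whole regions were not run, since no genome was used, and the RefSeq promoter windows were added after seeing the data. The 15 motifs searched on both strands were GATA, ETS, PU.1, RUNX (TGTGGTT), E-box, EBF, AP-1 (TGACTCA or TGAGTCA), C/EBP (TTGCGCAA or TTGCATCA), IRF, TCF/LEF, KLF (CCACACCC), CTCF (CNAGGTGGC or CNAGGGGGC), NF-kB (GGANTTTCC), SOX (ACAATGG or ACAAAGG) and FOXO (TGTTTAC), with the other letters given in the results. Matches of different motifs can overlap.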

Additional observations from a re-analysis of the deposited data

How the results depend on the processing

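Depth is unknown and the measurement is presence or absence, so a region missing from a shorter list may be open below the calling threshold. Outside the leave-one-out settings, 81 alternative values met a criterion of staying and 28 moved. The criterion was loose for some results. It asked for a limited fold change of the count of gained regions. For the share outside them it asked only for an unchanged sign of the difference. With a sample left out, the gained share of regions between genes moved each time. The cause of the moves was not tested. Alternatives for the surroundings of gained regions and for the Igk locus were chosen after seeing the data. The 0.1 p-value of the share outside gained regions is the smallest possible. Over alternatives the exact permutation p was 0.1 to 0.25, with differences of -3.39 to -1.17. Each setting removes peaks between genes from the knockout lists alone, which lowers the knockout share by construction. The stable sign and p-values are thus no support for a difference.

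With the widest 50% of peaks there were 837 gained regions between genes, 7.29% of the regions there, with a median width of 636 bp and 24.9% near another. The Igk difference (knockout minus wild-type mean peaks, those in gained regions included) was 11.3. With every list limited to the same number of peaks the gained share was 9.60% and, in an alternative added after seeing the data, the lost share 7.07%. This limit drops more narrow peaks from the wild-type lists, so regions that held them can count as gained. Where 2 of 3 knockout samples sufficed there were 2510, or 9.36%, with a median width of 348 bp and 37.2% near another. Where a peak of either genotype counted only if it covered 50% of the region, the share was 7.25%, the width 448.5 bp and 35.8% were near another. That setting also let in regions with wild-type peaks that covered less. For regions of at least 400 bp these were 8.25%, 466 bp and 27.5%. With gene flanks of 5 and 10 kb, 39.8% and 35.6% of gained regions lay between genes, the gained shares were 6.49% and 6.95% and the median distances 49411 and 58924 bp. With spans of all annotated genes the values were 32.5% between genes, 34707 bp and 28.4% near another. By nearest gene alone the gained share was 3.62% for stem and progenitor genes and 0% for housekeeping genes. The width difference of shared regions within 20 kb of a gained one was 0.252 (knockout minus wild-type ratio).

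Leaving out 1 sample each time gave 1667 to 2236 gained regions between genes (the latter without knockout sample 1), 6.36 to 8.44% of the regions there, 44.1 to 44.9% of all gained regions, median distances of 37433 to 38814 bp, widths of 362 to 396 bp and 31.2 to 37.1% near another. The Igk difference was 30.7 to 36.2 peaks, the width difference 0.158 to 0.204 and the difference in the share outside gained regions -2.85 to -2.29. The last of these is lowered by construction in each run. The Igk difference counts peaks in gained regions too, where the rule allows none in wild type, so the rule sets part of it. The gained share was 14.7 to 21.02% near B lymphoid, 8.46 to 9.85% near ETS, 6.61 to 9.60% near T and NK, 6.796 to 8.65% near dendritic cell, 3.55 to 4.73% near erythroid, 4.12 to 6.51% near granulocyte and monocyte, 1.45 to 2.26% near housekeeping, 2.17 to 4.44% near leukaemia, 0% near mast cell, 4.76 to 6.67% near megakaryocyte, 8.33 to 11.4% near neural, 6.90 to 10.9% near stem and progenitor and 1.45 to 4.17% near stroma genes.

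Replicate numbers are shared between genotypes, but the labels do not say that they pair samples. With the replicate block the difference in the share outside gained regions was again -2.17 (exact permutation p = 0.25, the smallest that 3 pairs allow). By construction the knockout share is lowered here too.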

Other observations

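A miRNA hairpin lay within 20 kb of 20 gained regions (1.26%), beside 2.45% of lost, 2.48% of shared and 2.17% of all regions between genes. Among the hairpins were those of miR-146a, an inhibitor of innate immune signalling, and of miR-34a, a target of p53. The mature sequences, from RefSeq (GRCm38.p6), are shown with the seed, bases 2 to 8, in capitals, and they share no seed.
miR-146a-5p: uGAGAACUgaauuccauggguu
miR-34a-5p: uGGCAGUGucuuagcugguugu

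The region near miR-146a (chr11:43388070-43388503) had peaks of 340, 427 and 434 bp in knockout samples 1, 2 and 3 and stood 13608 bp from the hairpin. That near miR-34a (chr4:150048057-150048861) had 663, 597 and 768 bp and stood 19592 bp away. Both miRNAs were chosen after their values were seen.

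Across chromosomes the gained share of regions between genes ran from 4.51% on chromosome 17 to 6.90% on chromosome 10, with 5.35% on chromosome X. On chromosome Y it was 0 of 12.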
